A study of Homo sapiens with 4 samples.

Results

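Histones are the small basic proteins around which DNA is wound in chromatin, and 54 of the 28391 genes in the deposited table encode members of this family by the rule used here. The rule took protein-coding genes by symbol, not by any measured value. It gave 45 genes whose symbols begin with HIST1H, HIST2H, HIST3H or HIST4H, called cluster genes here, and 9 variant genes, H1F0, H1FX, H2AFJ, H2AFV, H2AFX, H2AFY, H2AFZ, H3F3A and H3F3B. Of the cluster genes, 34 belonged to HIST1 on chromosome 6, 7 to HIST2 and 3 to HIST3 on chromosome 1, and 1 to HIST4 on chromosome 12. By class they were 3 linker histone H1 genes, 9 H2A, 13 H2B, 8 H3 and 12 H4 genes.

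RNA was sequenced from HCT116, a widely used human colorectal carcinoma cell line. There were 2 libraries of ALKBH5 knockdown cells, which carried a short hairpin (shALKBH5) against the enzyme that takes the methyl group off m6A in RNA, and 2 libraries of cells with a control hairpin (shNC), whose genotype the labels give as WT. The labels name neither a further ALKBH5 hairpin nor a rescue, nor the time after the hairpin was introduced, so effects of the hairpin besides the loss of ALKBH5 cannot be told apart from it. Nor do they tell whether separate cultures lie behind the libraries of a group, and p-values here therefore measure the spread between these samples alone, possibly a technical one.

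The gene targeted was low in the knockdown libraries. ALKBH5 (chromosome 17, 18183078 to 18209954, plus strand, on GRCh38) had 312 and 270.2 normalised counts in the shALKBH5 libraries, against 1905 and 1941 in the shNC libraries. Reads assigned to genes ranged from 16398604 to 17493141 per library. A normalised count is, to judge by the values, the reads of a gene divided by the library's size factor. Epithelial markers were high in all 4 libraries, with EPCAM between 4357 and 5064 and CDH1 between 1891 and 2171, while VIL1 stayed between 0.951 and 3.04. Of the leukocyte, endothelial and fibroblast markers measured, COL1A1 was the one with high values, between 838 and 910.3.

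Most histone protein of a dividing cell comes from the cluster genes, which are transcribed in S phase, when DNA is copied, and have no introns in their main transcripts. Their mRNAs normally end at a short stem-loop instead of a poly(A) tail. SLBP binds the stem-loop, the U7 snRNP and a cleavage complex cut the RNA behind it, and the mRNA is degraded quickly when replication stops. Some cluster genes also give longer transcripts that run past the stem-loop to an ordinary poly(A) signal. The variant genes lie apart from the clusters, are expressed through the cell cycle and make mostly polyadenylated mRNA. The libraries were made with an mRNA kit per the labels, which do not say how mRNA was selected. What share of stem-loop mRNA such libraries hold was not tested, so the cluster gene values are levels in these libraries and need not stand for all of each gene's mRNA.

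The histone stem-loop is shown here because the usual transcript of a cluster gene ends near it, while a longer one can run past it. It was found in a GENCODE 29 transcript of 26 of the 45 cluster genes and of 1 variant gene, H2AFX, and in 65 of 19922 protein-coding genes (0.326%). The sequences below are transcript DNA letters, 5′ to 3′, with the 16 bases of the stem-loop in capitals: a stem of 6 bases, a loop of 4 bases and the returning stem of 6 bases, with 5 bases on either side in lower case.
HIST1H2AC: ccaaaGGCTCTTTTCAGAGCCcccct
HIST3H2A: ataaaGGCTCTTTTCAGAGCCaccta
HIST1H2BD: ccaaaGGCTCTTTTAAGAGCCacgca
HIST1H3E: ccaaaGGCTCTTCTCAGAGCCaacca
HIST4H4: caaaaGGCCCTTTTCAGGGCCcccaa
HIST1H4I: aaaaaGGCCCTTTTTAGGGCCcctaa
H2AFX: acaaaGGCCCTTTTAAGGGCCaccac
The genes of classes H2A, H2B and H3 in this group had the stem GGCTCT, and both H4 genes and H2AFX had GGCCCT. The longest annotated transcript with a stem-loop ran on behind it for 1128 bases in HIST1H2AC, 390 in HIST3H2A, 1862 in HIST1H3E, 1510 in HIST4H4, 212 in HIST1H4I and 1044 in H2AFX, and for 39 in HIST1H2BD.

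Cluster histone genes with enough reads to measure lay mostly above shNC after ALKBH5 knockdown, by small to moderate amounts, and few passed the test. Summed over the 45 cluster genes, the normalised counts were 1221 and 1236 in the shALKBH5 libraries, against 701 and 854 in the shNC libraries. The shALKBH5 libraries lay close together and above both shNC libraries, which differed more between themselves. Of the 50 histone genes with at least 1 normalised count in at least 2 of the 4 libraries, 3 rose, 0 fell and 47 did not pass at an adjusted p under 0.05 in limma-trend. Those 3 were HIST1H2AC, HIST3H2A and H1F0. Over all 25887 genes tested, 1.98% rose and 1.88% fell, together 3.86%. At an unadjusted p under 0.05, 12 histone genes were higher and 3 lower, against 10.7% higher and 10.7% lower of all genes. On whole reads recovered from the table, edgeR tested 25 histone genes and called 8 higher and 2 lower, against 10.4% higher and 10.4% lower of all genes tested with it. The authors' deposited table calls 4 histone genes higher and 2 lower at the same threshold and lists an adjusted p of 1 for 39. DESeq2 on the recovered reads called the same numbers among the 15 histone genes to which it gave an adjusted p. Of all 12428 genes with such a value, 6.38% were higher and 5.56% lower.

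The direction was tilted among the cluster genes. Of the 41 cluster genes tested, 31 had a log2 fold change of shALKBH5 over shNC above 0, against 49.1% of all genes tested, and 30 of 40 did so with libraries scaled to equal totals. The median log2 fold change was 0.66 for the cluster genes, 0.04 for the 9 variant genes and -0.00 for all genes tested. In 17 cluster genes both shALKBH5 libraries lay above both shNC libraries and in 6 they lay below, against 25% above and 25.6% below over all genes. Without shNC library 1, 26 of the 41 cluster genes were above 0 and the median of the 41 was 0.40. In RNA of whole cultures, a change in the share of cells that express a gene and a change of RNA per cell cannot be told apart.

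Many cluster genes had only a handful of reads, so the pattern rests on the better measured ones. Of the 45, 24 had a mean under 5 normalised counts, among them the 4 that could not be tested, HIST1H1A, HIST1H4B, HIST2H4A and HIST2H4B. HIST1H2AB passed the filter through the shALKBH5 libraries alone, with 3 and 1 reads there and 0 in both shNC libraries. Of the 20 genes under 5 that were tested, 12 were above 0, and 4 lay wholly above and 4 wholly below shNC, 1 of these, HIST1H4C, on 0 and 1 reads in shALKBH5 against 2 and 1 in shNC. Among 21 genes with a mean of 5 or more, 19 were above 0, 13 lay wholly above and 2 wholly below, with a median log2 fold change of 0.74. HIST4H4, HIST1H4K and HIST2H3D reached that mean only through shALKBH5, with shNC means of 0.986, 2.41 and 3.07. HIST1H4E and HIST1H2AH fell short of it, with shNC means of 6.39 and 5.44 and lower values in shALKBH5. For protein-coding genes with a mean of 5 to 400, 45.5% were above 0, 22.8% lay wholly above and 30% wholly below. The 6 cluster genes with a mean of 50 or more, HIST1H1C, HIST1H2AC, HIST3H2A, HIST1H2BD, HIST1H2BK and HIST1H4I, all lay wholly above shNC. Of these, HIST1H2AC, HIST1H2BD and HIST1H4I reached 50 only through shALKBH5, with shNC means of 39.7, 47.0 and 42.1.

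**Figure D1:**
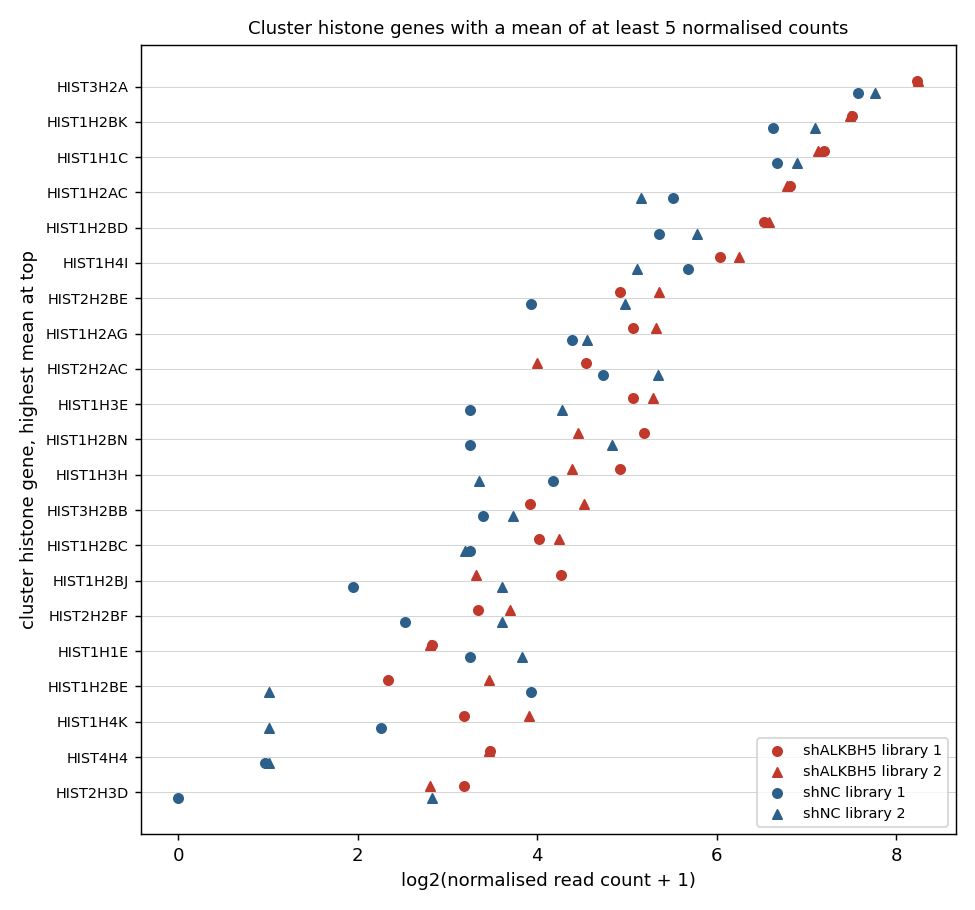
Log2 of the normalised read count plus 1 in each of the 4 libraries (2 shALKBH5, 2 shNC) for the 21 cluster histone genes whose mean reached 5 normalised counts, ordered by that mean, which also depends on transcript length. Both shALKBH5 points lie to the right of both shNC points in 13 genes and to the left in 2, HIST2H2AC and HIST1H1E.

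The H2A genes of the clusters held the clearest rises. They encode the core histone that pairs with H2B in the nucleosome. HIST1H2AC (chromosome 6, 26124145 to 26139116, plus strand) had 111 and 109 normalised counts in the shALKBH5 libraries, against 44.7 and 34.7 in the shNC libraries. The means were 110.3 ± 1.68 in shALKBH5 and 39.7 ± 7.05 in shNC (SD, n = 2 each). It rose by 1.46 ± 0.199 (SE) on the log2(value + 1) scale, or 2.75-fold, with a limma-trend adjusted p of 0.0286 and an edgeR adjusted p of 5.98e-05.

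HIST3H2A (chromosome 1, 228456979 to 228457873, minus strand) was the cluster gene with the most reads. It had 299.9 and 303 normalised counts in the shALKBH5 libraries, against 189 and 217 in the shNC libraries. The groups did not overlap, and it rose by 0.57 ± 0.101 (SE), or 1.49-fold, with a limma-trend adjusted p of 0.0484 and an edgeR adjusted p of 0.00197. With either shNC library left out, no gene of any kind (0) passed in limma-trend, where 3859 or 4201 had an unadjusted p under 0.05, and without shNC library 1 or 2 the log2 fold change was 1.64 or 1.28 for HIST1H2AC and 0.48 or 0.67 for HIST3H2A. In edgeR both passed with any 1 library left out, with adjusted p from 1.89e-07 to 0.000314 for HIST1H2AC and from 0.000301 to 0.0147 for HIST3H2A. Over all settings tried, adjusted p ran from 1.89e-07 to 0.274 for HIST1H2AC and from 0.000301 to 0.277 for HIST3H2A.

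Other H2A genes pointed both ways. HIST1H2AG had 32.4 and 39.0 normalised counts in the shALKBH5 libraries, against 19.97 and 22.5 in the shNC libraries, with a log2 fold change of 0.72 that did not pass. HIST2H2AC had 22.3 and 15.0 in the shALKBH5 libraries, against 25.7 and 39.8 in the shNC libraries, a log2 fold change of -0.77 at a limma-trend adjusted p of 0.304. It was 1 of the 2 genes with a mean of 5 or more that lay wholly below shNC, and 30.5% of its 50-base windows occur in another gene. HIST1H2AH, with 1 read in each shALKBH5 library and 5 and 6 in the shNC libraries, had a log2 fold change of -1.67, the lowest of the 50 tested on this scale. Summed over the 9 H2A genes of the clusters, the counts were 481 and 474 in the shALKBH5 libraries, against 285 and 324 in the shNC libraries.

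H2B genes, which encode the partner of H2A, were above 0 in 12 of 13 cases, with a median log2 fold change of 0.66 and 0 past the threshold in limma-trend. HIST1H2BD (chromosome 6, 26158146 to 26171349, plus strand) had 91.2 and 95.1 normalised counts in the shALKBH5 libraries, against 39.9 and 54.1 in the shNC libraries. Its log2 fold change was 0.99 ± 0.213 (SE), and its adjusted p was 0.0733 in limma-trend and 0.00323 in edgeR. HIST1H2BK had 181 and 178 in the shALKBH5 libraries, against 98.0 and 136 in the shNC libraries, a log2 fold change of 0.64 and adjusted p of 0.125 in limma-trend and 0.0104 in edgeR, or 0.136 in edgeR without shNC library 1. The groups did not overlap in either gene. Part of the HIST1H2BK reads may belong elsewhere, since 74.1% of its 50-base windows occur in another gene, 61.4% in H2BFS. HIST2H2BE had 29.4 and 40.0 in the shALKBH5 libraries, against 14.3 and 30.7 in the shNC libraries, so shNC library 2 lay inside the shALKBH5 range. The H2B sum was 406 and 418 in the shALKBH5 libraries, against 205 and 301 in the shNC libraries.

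H3 cluster genes had the highest class median, 0.95, on few reads, with 6 of 8 above 0 and 0 past the threshold in limma-trend. HIST1H3E had 32.4 and 38.0 normalised counts in the shALKBH5 libraries, against 8.56 and 18.4 in the shNC libraries. The groups did not overlap, the log2 fold change was 1.41, and the adjusted p was 0.147 in limma-trend and 0.0195 in edgeR. In edgeR that call was lost without shALKBH5 library 1 or 2, at 0.0572 or 0.131, and without shNC library 1, at 0.172. HIST1H3H had 29.4 and 20.02 in the shALKBH5 libraries, against 17.1 and 9.20 in the shNC libraries, a log2 fold change of 0.89 at a limma-trend adjusted p of 0.312. The H3 sum was 78.0 and 81.1 in the shALKBH5 libraries, against 35.2 and 41.9 in the shNC libraries.

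Among the H4 genes, 5 of the 9 tested were above 0, and 0 passed in limma-trend. HIST1H4I, the H4 gene with the most reads, had 64.9 and 75.1 normalised counts in the shALKBH5 libraries, against 50.4 and 33.7 in the shNC libraries, a log2 fold change of 0.74 and adjusted p of 0.184 in limma-trend and 0.0471 in edgeR. In edgeR that call was lost without shALKBH5 library 1 or 2, at 0.0775 or 0.229, and without shNC library 2, at 0.264. HIST4H4 (chromosome 12, 14767999 to 14771131, minus strand), the 1 member outside the larger clusters, had the highest fold change of the 50 tested on the log2(value + 1) scale. It had 10 and 10 reads in the shALKBH5 libraries, against 1 and 1 in the shNC libraries. Scaled by size factors, its counts were 10.1 and 10.0 in the shALKBH5 libraries and 0.951 and 1.02 in the shNC libraries. Its 20 reads against 2 gave a ratio of 10.2, with an exact 95% interval of 2.48 to 90.2 that covers counting error only. It did not pass, with a limma-trend adjusted p of 0.0628. HIST1H4K had 8.11 and 14.0 in the shALKBH5 libraries and 3.80 and 1.02 in the shNC libraries, but all (100%) of its 50-base windows occur in another gene, HIST1H4J, so its reads are uncertain. The H4 sum was 103 and 115 in the shALKBH5 libraries, against 65.6 and 55.2 in the shNC libraries.

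The linker histone genes, whose products bind DNA between nucleosomes, did not move together. HIST1H1C had 146 and 139 normalised counts in the shALKBH5 libraries, against 101 and 119 in the shNC libraries, a log2 fold change of 0.38 at a limma-trend adjusted p of 0.199. HIST1H1E had 6.08 and 6.01 in the shALKBH5 libraries, against 8.56 and 13.3 in the shNC libraries, a log2 fold change of -0.73 at a limma-trend adjusted p of 0.425. The groups did not overlap in either gene, in opposite directions. The H1 sum was 152 and 147 in the shALKBH5 libraries, against 109 and 132 in the shNC libraries.

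**Figure D2:**
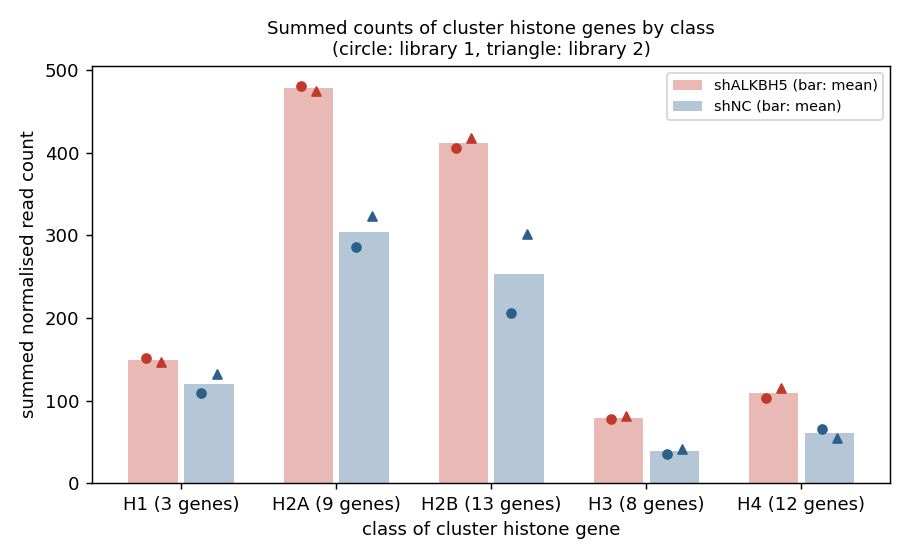
Normalised read counts summed over the cluster histone genes of each class, with a bar for the mean and a point for each of the 2 libraries of shALKBH5 and of shNC. In all 5 classes both shALKBH5 points lie above both shNC points, as in H2A with 481 and 474 in shALKBH5 against 285 and 324 in shNC. Single genes hold most of some sums, so a class sum need not stand for its genes. In shALKBH5, HIST3H2A had 299.9 and 303 of the H2A counts. HIST1H1C had 146 and 139 of the H1 counts there, while HIST1H1E lay below shNC.

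By cluster, the sums of HIST1 were 822 and 819 in the shALKBH5 libraries, against 454 and 532 in the shNC libraries. Those of HIST3, mostly the counts of HIST3H2A, were 316 and 327 in the shALKBH5 libraries, against 202 and 232 in the shNC libraries. HIST2 differed in that its groups overlapped, with 73.0 and 80.1 in the shALKBH5 libraries and 44.7 and 88.9 in the shNC libraries. The difference between clusters was not tested. Some HIST2 genes share most of their sequence with another gene, so their own counts are uncertain: 97.5% of the 50-base windows in HIST2H4A, 97.2% in HIST2H4B, 97.1% in HIST2H2AA4 and 80.4% in HIST2H3D.

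The cluster genes were also grouped by how their annotated transcripts end. In 19 genes an annotated transcript runs at least 100 bases past the stem-loop, and 14 of these have a poly(A) signal in the last 60 bases. Their summed counts were 696 and 734 in the shALKBH5 libraries, against 399 and 438 in the shNC libraries, and 15 of 17 tested were above 0, with a median log2 fold change of 0.68. In 7 genes the annotated transcripts that hold the stem-loop end within 100 bases of it, with sums of 104 and 107 in the shALKBH5 libraries and 43.8 and 62.3 in the shNC libraries. Most of these counts were those of HIST1H2BD, which also has a longer annotated transcript of 789 bases without the stem-loop. The other 19 have no stem-loop in the annotated transcript, often because the annotation covers the coding part alone, and their sums were 421 and 395 in the shALKBH5 libraries, against 259 and 354 in the shNC libraries. In each of these groups the sums of the shALKBH5 libraries lay above those of the shNC libraries. A few genes held most of each sum. They were HIST3H2A and HIST1H2AC in the genes that run on, and HIST1H2BK and HIST1H1C in those without a stem-loop. Of the genes tested, 12 of 18 without a stem-loop and 4 of 6 ending near it were above 0, against 49.1% of all genes. Scaled for gene length and to an equal library total, as TPM, the median level was 0.775 in the genes that run on. It was 0.654 in those that end near the stem-loop and 1.56 in those without one, with ranges that overlapped widely. Gene lengths follow the annotation, so these levels also depend on how much of each transcript it covers.

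Many H2A and H2B genes lie head to head and start transcription from the same short stretch of DNA. There were 7 pairs of members with divergent annotated gene starts between 218 and 356 bases apart. These are the ends of the annotated genes, some of which cover the coding part alone. They can differ from the RefSeq starts used for the promoters. HIST1H2BC and HIST1H2AC, 218 bases apart, had log2 fold changes of 0.91 and 1.46, and HIST3H2A and HIST3H2BB, 233 bases apart, had 0.57 and 0.66. HIST1H2BJ and HIST1H2AG had 1.01 and 0.72, and HIST1H2BL and HIST1H2AI had 1.45 and 1.53 on very few reads. HIST1H3J and HIST1H2BO lay below 0 together, at -0.27 and -0.25, on few reads. HIST1H3J shares 44.6% of its exon bases with HIST1H2AM on the same strand, so its own counts and start are uncertain. In the remaining pairs the partners differed in sign: HIST1H2BK had 0.64 and HIST1H2AH -1.67, and HIST2H2BE had 0.68 and HIST2H2AC -0.77.

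The stretches before the starts of HIST1H2AC and HIST3H2A, the cluster genes that passed, and of HIST4H4, with 20 reads in shALKBH5 against 2 in shNC, are shown to let their promoters be compared. They are the 250 bases before the start from RefSeq on GRCh38.p14, read 5′ to 3′ along the strand of the gene. HIST1H2AC is at chr6:26123922-26124171 on the plus strand, HIST3H2A at chr1:228457874-228458123 on the minus strand and HIST4H4 at chr12:14771132-14771381 on the minus strand. Capitals mark the CCAAT box, the TATA box as TATAAA and the octamer ATTTGCAT, bound by POU2F1, each on either strand, and the H1 box AAACACA was searched as well. None of these motifs overlaps another in the 3 stretches.
HIST1H2AC: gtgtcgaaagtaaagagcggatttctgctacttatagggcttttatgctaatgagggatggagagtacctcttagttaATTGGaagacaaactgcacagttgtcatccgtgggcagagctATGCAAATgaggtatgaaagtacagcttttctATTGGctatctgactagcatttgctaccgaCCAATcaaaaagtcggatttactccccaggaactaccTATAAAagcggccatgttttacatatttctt
HIST3H2A: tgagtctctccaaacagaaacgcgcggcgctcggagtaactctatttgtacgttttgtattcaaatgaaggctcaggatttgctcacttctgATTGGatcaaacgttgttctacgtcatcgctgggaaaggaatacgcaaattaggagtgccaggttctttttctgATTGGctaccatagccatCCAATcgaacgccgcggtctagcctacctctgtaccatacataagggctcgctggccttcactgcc
HIST4H4: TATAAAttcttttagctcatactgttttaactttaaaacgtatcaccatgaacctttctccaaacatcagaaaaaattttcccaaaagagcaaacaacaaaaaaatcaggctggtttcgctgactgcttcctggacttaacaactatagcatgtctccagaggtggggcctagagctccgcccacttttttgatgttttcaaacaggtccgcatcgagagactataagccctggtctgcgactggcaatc
HIST1H2AC held CCAAT on either strand at 3 places, TATAAA at position -31 from the start and the octamer at position -130. HIST3H2A held 3 CCAAT boxes and none of the other letters searched. HIST4H4 held TATAAA alone, at position -250. That is the far end of the stretch, so this match of letters need not be a TATA box.

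Windows of 300 bases, from 250 before to 50 after the start, were on hand for 49 of the 54 members, and those of H1F0, HIST1H2AH, HIST1H3J, HIST1H4A and HIST1H4C were not. CCAAT occurred in 35 of 44 windows of cluster genes (79.5%) against 34.6% of all 35116 promoter windows, in every H1, H2A, H2B and H3 window and in 1 of 10 H4 windows. TATAAA occurred in 31 of 44 (70.5%) against 11.5% of all windows. The octamer occurred in 5 of 8 H2A and 10 of 15 H2B windows and in 0 of the H1, H3 and H4 windows, against 1.77% of all windows. AAACACA occurred in 3 of 3 H1 windows against 5.64% of all. These are matches of letters and show nothing of the factors that bind them. The windows are not all separate, so the same motif can be counted repeatedly. Some head-to-head genes, such as HIST1H2AC and HIST1H2BC, share most of their window, and HIST1H2BD and HIST1H2BK entered with near-identical windows.

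The variant genes made up nearly all histone reads and differed little between the groups. Their summed counts were 69468 and 67847 in the shALKBH5 libraries, against 65691 and 66234 in the shNC libraries, and 1 of the 9 passed. Per gene length, the mean level over the 4 libraries was 1435 TPM for H1F0, 744 for H2AFX, 650 for H2AFZ, 570 for H3F3B, 468 for H1FX, 253 for H3F3A, 105 for H2AFV, 44.6 for H2AFY and 18.2 for H2AFJ. The highest of the cluster genes on the same scale were HIST1H2BK at 71.4, HIST3H2A at 51.7 and HIST1H1C at 36.1. The order of genes on this scale depends on the annotated length. HIST1H2BK had a mean of 148 normalised counts over 381 bases, and H2AFY 4285 over 17730 bases. All 45 cluster genes together came to 289 and 285 TPM in the shALKBH5 libraries, against 179 and 226 in the shNC libraries.

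H1F0 (chromosome 22, 37805093 to 37807436, plus strand) encodes the linker histone known for building up in cells that have stopped dividing. It had 19853 and 19048 normalised counts in the shALKBH5 libraries, against 16879 and 17304 in the shNC libraries. The means were 19451 ± 569 in shALKBH5 and 17092 ± 301 in shNC (SD, n = 2 each), and it rose by 0.19 ± 0.0329 (SE), or 1.14-fold, with a limma-trend adjusted p of 0.0484. The rise was small but wider than the gap between libraries of a group. It did not pass in limma-trend without shNC library 1 or 2, and in edgeR its adjusted p was 0.00103 with all libraries and between 2.48e-07 and 0.0490 with any 1 left out. Over all settings tried it ran from 2.48e-07 to 0.403. H1F0 and HIST3H2A sat near the threshold, and with a pseudocount of 0.5 their adjusted p were 0.0531 and 0.0537.

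The other linker variant lay the other way. H1FX had 3631 and 3542 normalised counts in the shALKBH5 libraries, against 3913 and 4188 in the shNC libraries, with a log2 fold change of -0.17 and adjusted p of 0.105 in limma-trend and 0.00751 in edgeR, or 0.0854 in edgeR without shALKBH5 library 2. The groups did not overlap. An antisense gene, H1FX-AS1, covers 22.9% of its exon bases, and no source used here says if counting used the strand, so reads of both cannot be told apart.

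H2A variants were split as well. H2AFX encodes the H2A form that is phosphorylated next to DNA breaks, and its mRNA can end at a stem-loop or carry a poly(A) tail. It had 7325 and 6740 normalised counts in the shALKBH5 libraries, against 5711 and 6336 in the shNC libraries, with a log2 fold change of 0.22 and adjusted p of 0.133 in limma-trend and 0.00279 in edgeR. H2AFZ, whose product marks nucleosomes at promoters, had 7636 and 7905 in the shALKBH5 libraries, against 8500 and 8373 in the shNC libraries, with a log2 fold change of -0.12 and adjusted p of 0.119 in limma-trend and 0.0300 in edgeR. Neither gene's groups overlapped. Single libraries decided the edgeR calls of both: without shALKBH5 library 1 the adjusted p was 0.0827 for H2AFX and 0.307 for H2AFZ, and without shALKBH5 library 2 it was 0.0854 for H2AFZ.

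In the rest of the variants the groups lay close to each other or overlapped. H2AFV, a close paralogue of H2AFZ, had 2764 and 2704 normalised counts in the shALKBH5 libraries and 2736 and 2586 in the shNC libraries. H2AFY, the gene of macroH2A, a form enriched on the inactive X chromosome, had 4318 and 4230 in the shALKBH5 libraries and 4317 and 4274 in the shNC libraries. H2AFJ had 382 and 325 in the shALKBH5 libraries and 268 and 355 in the shNC libraries. Their log2 fold changes were 0.04, -0.01 and 0.19, with limma-trend adjusted p of 0.671, 0.931 and 0.547.

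H3F3A and H3F3B encode the same H3 protein, which is placed into chromatin outside replication. H3F3A had 4437 and 4409 normalised counts in the shALKBH5 libraries and 4119 and 4324 in the shNC libraries, with a log2 fold change of 0.07 at a limma-trend adjusted p of 0.370. H3F3B had 19122 and 18945 in the shALKBH5 libraries and 19247 and 18495 in the shNC libraries, with a log2 fold change of 0.01, or -0.02 with libraries scaled to equal totals, and a limma-trend adjusted p of 0.875.

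**Figure D3:**
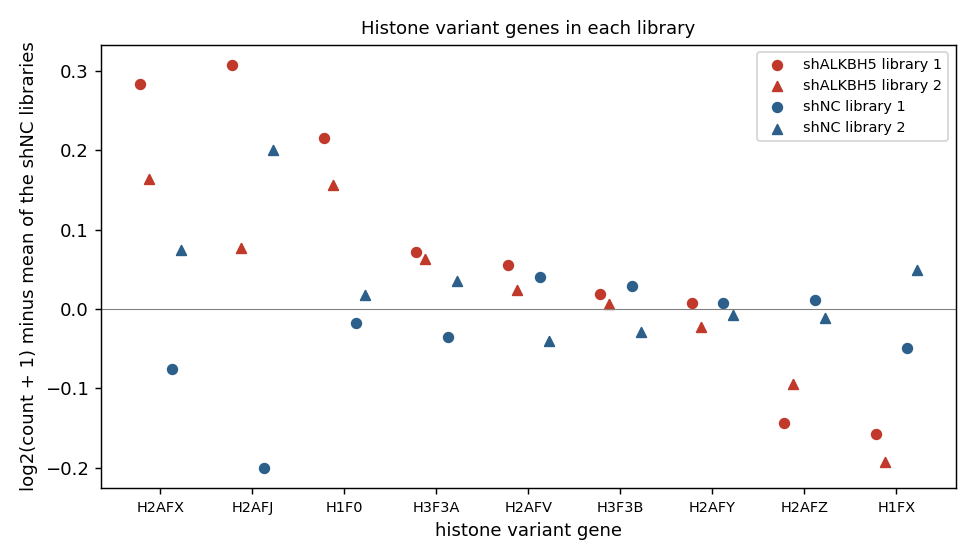
Log2 of the normalised count plus 1 of each histone variant gene in each library, as the difference from the mean of the shNC libraries (2 shALKBH5 and 2 shNC libraries). H2AFX, H1F0 and H3F3A have both shALKBH5 points above both shNC points, H2AFZ and H1FX below and the other 4 variants have groups that overlap.

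**Figure D4:**
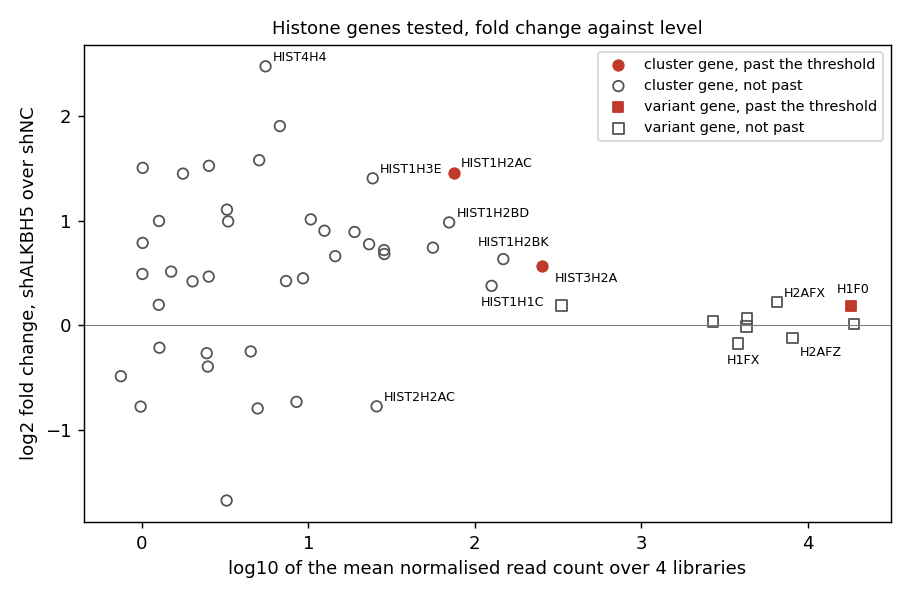
Log2 fold change of shALKBH5 over shNC of the 50 histone genes tested against log10 of their mean normalised read count, with circles for cluster genes, squares for variant genes and filled symbols for those past the threshold. The fold changes of the cluster genes run from -1.67 to 2.48 and are widest where counts are lowest, while the variants lie between -0.17 and 0.22.

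Genes that make or trim histone mRNA were then read from the same test. Of 32 genes for transcription and 3′ processing of histone mRNA, all tested, 1 rose, 2 fell and 29 did not pass. Of all genes, 1.98% were higher and 1.88% lower. The median log2 fold change was -0.02 for this list, beside -0.00 for all genes tested. ERI1, an exonuclease that binds the stem-loop with SLBP and trims histone mRNA, had 1363 and 1402 normalised counts in the shALKBH5 libraries, against 1945 and 1906 in the shNC libraries. It fell by 0.48 ± 0.0425 (SE) on the log2 scale, with a limma-trend adjusted p of 0.0108. MIF4GD, which links SLBP to translation, fell by 0.37 with an adjusted p of 0.0464, at 501 and 468 in the shALKBH5 libraries against 625 and 630.4 in the shNC libraries. LSM4, a subunit of the ring that takes part in decay of mRNA, rose by 0.24 with an adjusted p of 0.0323, at 7175 and 6884 in the shALKBH5 libraries against 5963 and 5947 in the shNC libraries.

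The central factors of the list did not pass in limma-trend. SLBP had 2581 and 2552 normalised counts in the shALKBH5 libraries, against 2787 and 2834 in the shNC libraries, with a log2 fold change of -0.13 at a limma-trend adjusted p of 0.119. NPAT, the coactivator of histone gene transcription, had 405 and 380.3 in the shALKBH5 libraries, against 467 and 480.2 in the shNC libraries, with -0.27 and 0.108. CASP8AP2, which works with NPAT at histone locus bodies, had 453 and 468 in the shALKBH5 libraries and 523 and 449.5 in the shNC libraries, so its groups overlapped. In SLBP and NPAT both shALKBH5 libraries lay below both shNC libraries. Both passed in edgeR with all libraries, with adjusted p of 0.0393 for SLBP and 0.0350 for NPAT. Of the list, 3 genes were higher and 7 lower in edgeR, where 10.4% of all genes tested were higher and 10.4% lower.

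Among 34 histone chaperones and deposition factors, all tested, 3 rose, 1 fell and 30 did not pass, against 1.98% higher and 1.88% lower of all genes, with a median log2 fold change of 0.01. SET, a chaperone and inhibitor of histone acetylation, had 9532 and 9545 normalised counts in the shALKBH5 libraries, against 7381 and 7502 in the shNC libraries, and rose by 0.36 with a limma-trend adjusted p of 0.00797. CABIN1, a subunit of the HIRA complex that deposits H3F3A and H3F3B products, rose by 0.30, and NAP1L4, a nucleosome assembly protein, by 0.25. ANP32E, the chaperone that removes the H2AFZ product from chromatin, fell by 0.32, at 2741 and 2701 in the shALKBH5 libraries against 3454 and 3346 in the shNC libraries. The replication-coupled factors ASF1B and CHAF1A had log2 fold changes of -0.11 and -0.05 and did not pass.

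Most S phase and DNA replication genes lay slightly below shNC. Of 46 tested, 0 rose, 2 fell and 44 did not pass, against 1.98% higher and 1.88% lower of all genes, 16 were above 0, and the median log2 fold change was -0.05. RRM2, a subunit of ribonucleotide reductase, had 3218 and 3440 normalised counts in the shALKBH5 libraries, against 4663 and 4303 in the shNC libraries, and fell by 0.43 with a limma-trend adjusted p of 0.0252. E2F8, a repressor of the E2F family that is itself made in S phase, had 364 and 407 in the shALKBH5 libraries, against 636 and 706 in the shNC libraries, and fell by 0.80 with an adjusted p of 0.0195. In 24 of the genes both shALKBH5 libraries lay below both shNC libraries and in 6 above, against 25.6% below and 25% above over all genes. Calls here varied with the test and the scaling, with 1 higher and 12 lower in edgeR, where 10.4% of all genes were higher and 10.4% lower, and 0 higher and 10 lower in limma-trend with equal totals, where 787 genes were higher and 1272 lower of 24995 tested. The difference between this list and the cluster histone genes was not tested.

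**Figure D5:**
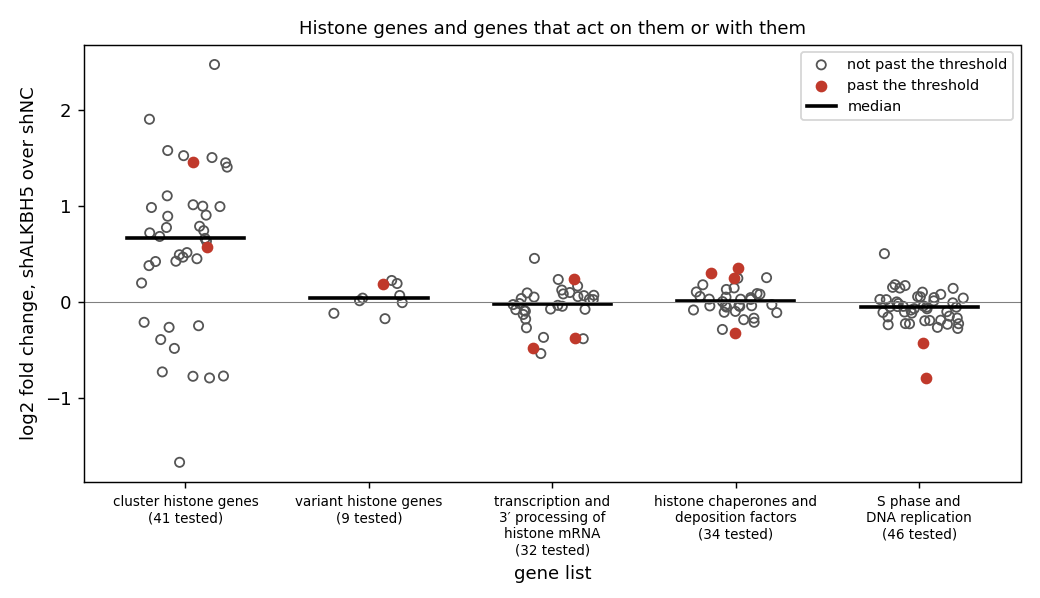
Log2 fold change of shALKBH5 over shNC of each gene tested, in the cluster and variant histone genes and in 3 lists of genes that act on histones or in S phase, with filled points past the threshold and a bar at the median. The medians are 0.66 for cluster histone genes, 0.04 for variants, -0.02 for 3′ processing, 0.01 for chaperones and -0.05 for S phase genes.

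Of 12 further histone variant genes outside the rule, 4 were tested. CENPA, the H3 variant of centromeres, had 555.3 and 524 normalised counts in the shALKBH5 libraries, against 771 and 702 in the shNC libraries, and fell by 0.45 with a limma-trend adjusted p of 0.0415. The other 3 did not pass.

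The calls rest on 2 libraries a group. Without shNC library 1 or 2 the limma-trend calls given for genes of these lists were lost, where a group of 1 library is taken to vary like the other. All of these calls were also made in edgeR with any 1 library left out. Over all genes the deposited scaling gave 513 higher and 487 lower, and equal library totals gave 787 higher and 1272 lower.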

How the data were processed

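What the authors deposited per library is a signal: the reads of a gene over that library's size factor, to judge by the values. The deposited table also holds the authors' log2 fold change and p-value, per the file headers. The sources used here do not give the aligner, the counting program or the genome build. All 54 members had the chromosome, start, end and strand of GENCODE 29 on GRCh38. Multiplying back gave whole reads within 0.001 in 100% of cases. There were 0 further columns of per-sample values.

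Values were tested as log2(value + 1) with limma-trend (limma 3.58.1, R 4.3.3), two-sided, over 25887 genes that reached 1 in 2 or more libraries, Benjamini-Hochberg adjusted, at a threshold of 0.05. The added 1 makes fold changes of low genes too small. edgeR 4.0.16 (quasi-likelihood) and DESeq2 1.42.0 on the recovered reads were alternatives. Other pseudocounts, filters and scalings, a replicate block and leaving out each library were tried as well, and edgeR with a library left out was added after the data were seen. The fits were first tested on simulated counts in which 200 genes had known changes.

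TPM levels were computed from the deposited counts and the table's gene lengths. Libraries of a group differed beyond sampling noise (chi-square per gene: 2.28 in shALKBH5, 2.997 in shNC) and were counted as separate samples.

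The members, the other gene lists and the tests were chosen with earlier results of these data known. Named were ALKBH5, histone genes past the threshold, the 9 variants, the 6 cluster genes with the smallest p, the 2 with the highest mean per class, genes past the threshold in the other lists (at most 6 each), and SLBP, NPAT, CASP8AP2, ASF1B, CHAF1A, CENPA and RRM2. Further cluster genes given as examples were chosen after their values were seen.

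Stem-loops were searched in GENCODE transcripts, and sequence shared between genes in windows of 50 bases. Promoter sequences are RefSeq's.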

Additional observations from a re-analysis of the deposited data

How the results depend on the processing

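The calls depend on the test. Over all genes, 513 were higher and 487 lower. Testing only genes whose mean reached 50 gave 1789 and 1698, equal library totals 787 and 1272, edgeR 1712 and 1716, and DESeq2 793 higher. No mean-variance trend gave 0 and 0, with 3903 at an unadjusted p under 0.05. The replicate block gave 56 higher and 55 lower, with 0 histone genes past the threshold and 12 at an unadjusted p under 0.05. Same-numbered libraries did not deviate together (r = -0.0275 over 12540 genes), and whether they share more than a number was not tested further. With 1 library left out, limma-trend gave 0 to 1129 higher and 0 to 1152 lower, with 3859 or 4201 at an unadjusted p under 0.05 where it gave 0, and edgeR gave 978, 1137, 1535 and 1778 higher and 989, 1091, 1481 and 1655 lower. For histone genes, 3 higher and 0 lower became 1 higher with a pseudocount of 0.5 or without a filter. The counts became 5 and 2 with equal totals, 0 higher without the trend, 8 and 2 in edgeR, and 2 lower in DESeq2. Where means reached 50, they became 7 and 2. Of those 7, HIST1H2AC, HIST1H2BD and HIST1H4I reached 50 only through shALKBH5, with shNC means of 39.7, 47.0 and 42.1. With 1 library left out, limma-trend gave 0 to 6 higher and 0 to 1 lower, and edgeR 5 to 9 higher and 0 to 2 lower. HIST1H2AC, HIST3H2A and H1F0 were called in each of these edgeR fits. Genes near a log2 fold change of 0 turned sign: H3F3B gave -0.021 with equal totals, and with 1 library left out limma-trend gave H3F3B -0.0162 to 0.0414, H2AFV -0.00075 to 0.0804, H2AFJ -0.0082 to 0.393, CASP8AP2 -0.183 to 0.0350 and H2AFY -0.0223 to 0.0074. In edgeR the turned values were -0.0191 for H3F3B, -0.00366 for H2AFV, -0.0056 for H2AFJ, 0.0339 for CASP8AP2 and 0.0041 for H2AFY. The causes of these differences were not tested. Low counts are a further limit, with 24 of the 45 cluster genes at a mean under 5.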
